A study of Homo sapiens with 12 samples.

Results

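The RAS and RAF genes NRAS, HRAS, RRAS, RRAS2, MRAS, ARAF and BRAF were followed across 12 exon arrays of MDA-MB-231 cells, an established human breast cancer line that is known to carry activating mutations in a RAS gene and in a RAF gene. The mutations were not measured here, since the arrays read RNA levels. The 7 genes were chosen by name, and their probes were those whose transcript accession belongs to one of these symbols. All 7 of the 20708 genes with a named probe were present, on 71 probes, and all 7 were among the 18253 genes that passed a filter on dim probes, on 67 kept probes.

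miRNA precursors were transfected at 5 nM and Dicer-substrate short interfering RNAs at 500 pM, the latter for 72 h. The group cntrl received negative control oligonucleotides of both kinds, mimic145 the miR-145-5p precursor, sirnaAGO2 the short interfering RNA against AGO2, and sirnaAGO2+mimic145 both active agents. Which control oligonucleotide accompanied a single agent is stated for cntrl only. There were 3 arrays in each of the 4 groups, described by the submitters as biological triplicates, and the small number of arrays limits the precision of every value. As a model, this was 1 cell line with a transient excess of 1 miRNA, and no wild-type RAS line was among the arrays.

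RAS proteins are small GTPases of the plasma membrane that are switched on when exchange factors load them with GTP and switched off when GTPase-activating proteins help them hydrolyse it. Active RAS recruits the RAF kinases to the membrane, and RAF passes the signal through the kinases MEK and ERK to the nucleus, where feedback inhibitors such as the DUSP phosphatases and the Sprouty proteins are induced. In tumors with a mutant RAS or RAF gene this cascade is active without its upstream receptor, and the remaining family members act beside the mutant protein.

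The transfected miRNA finds its targets mainly by its seed, bases 2 to 8 from its 5′ end, which pairs with complementary sites, most often in the 3′ UTR of a messenger RNA, and loads into an Argonaute protein such as AGO2. The mature sequence is shown because it is the agent compared in both mimic experiments, with the seed in capitals. It comes from RefSeq (GRCh38.p14, chr5:149430661-149430683, plus strand).
hsa-miR-145-5p: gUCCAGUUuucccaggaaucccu
Seed matches in the transcripts of the 7 genes were not analysed here.

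All values are log2 of the quantile-normalized processed signal, averaged over the kept probes of a gene, and differences between groups are on the same log2 scale. A gene was called where limma's adjusted p was under 0.05 over all 18253 genes. The level of 1 gene is not comparable with that of another, because probes differ in brightness. AGO2, the silenced gene, fell by 0.71 in sirnaAGO2 against cntrl, to 61.0% of its level (limma adjusted p = 0.00491, lower in 3 of 3 replicate pairs, exact permutation p = 0.1, the smallest that 3 arrays against 3 allow). In sirnaAGO2+mimic145 against mimic145 its difference was -1.06 (limma adjusted p = 0.000783), to 48.1%. AGO2 was also 0.28 higher in mimic145 than in cntrl (limma adjusted p = 0.0298, passing in 15 of 27 alternative settings of the fit). Of these 27, 2 changed only probes of the members, so for AGO2 and other genes they nearly repeated the fit reported. A pass in those 2 adds no support for such a gene. AGO2 had -0.06 in sirnaAGO2+mimic145 against sirnaAGO2 (limma adjusted p = 0.607). The share of spots well above background ran from 60.5% to 77.3% over the arrays. Of the line's usual markers, all 9 probes of VIM and all 18 of CD44 were well above background on every cntrl array and 0 of 9 of PGR were, as were 5 of 14 of ESR1, but 8 of 10 probes of EPCAM and 6 of 6 of GATA3, which mark luminal epithelium, were too. The 6 slides carried 2 arrays each, of 1 replicate number, without the mimic at the first position and with it at the second, so mimic and position on the slide cannot be told apart. No slide held arrays both with and without AGO2 silencing. Every comparison of silencing is therefore between slides, and silencing and slide cannot be told apart either.

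NRAS was the member that changed. With the mimic it fell to 65.8% of its level in cells with AGO2 and to 63.4% in cells in which AGO2 was silenced. HRAS, RRAS, RRAS2, MRAS, ARAF and BRAF passed the test in neither mimic comparison. In mimic145 against cntrl, 1 of 7 members was called, against 22.6% of all genes tested, and 2 of 7 had an unadjusted p under 0.05, against 35.4% of all genes. In sirnaAGO2+mimic145 against sirnaAGO2, again 1 of 7 was called, against 7.28% of all genes, and 2 of 7 had an unadjusted p under 0.05, against 28.8%. The median difference of the 7 members was 0.02 in control cells, against 0.01 over all genes, and -0.08 in silenced cells, against 0.02.

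**Figure D1:**
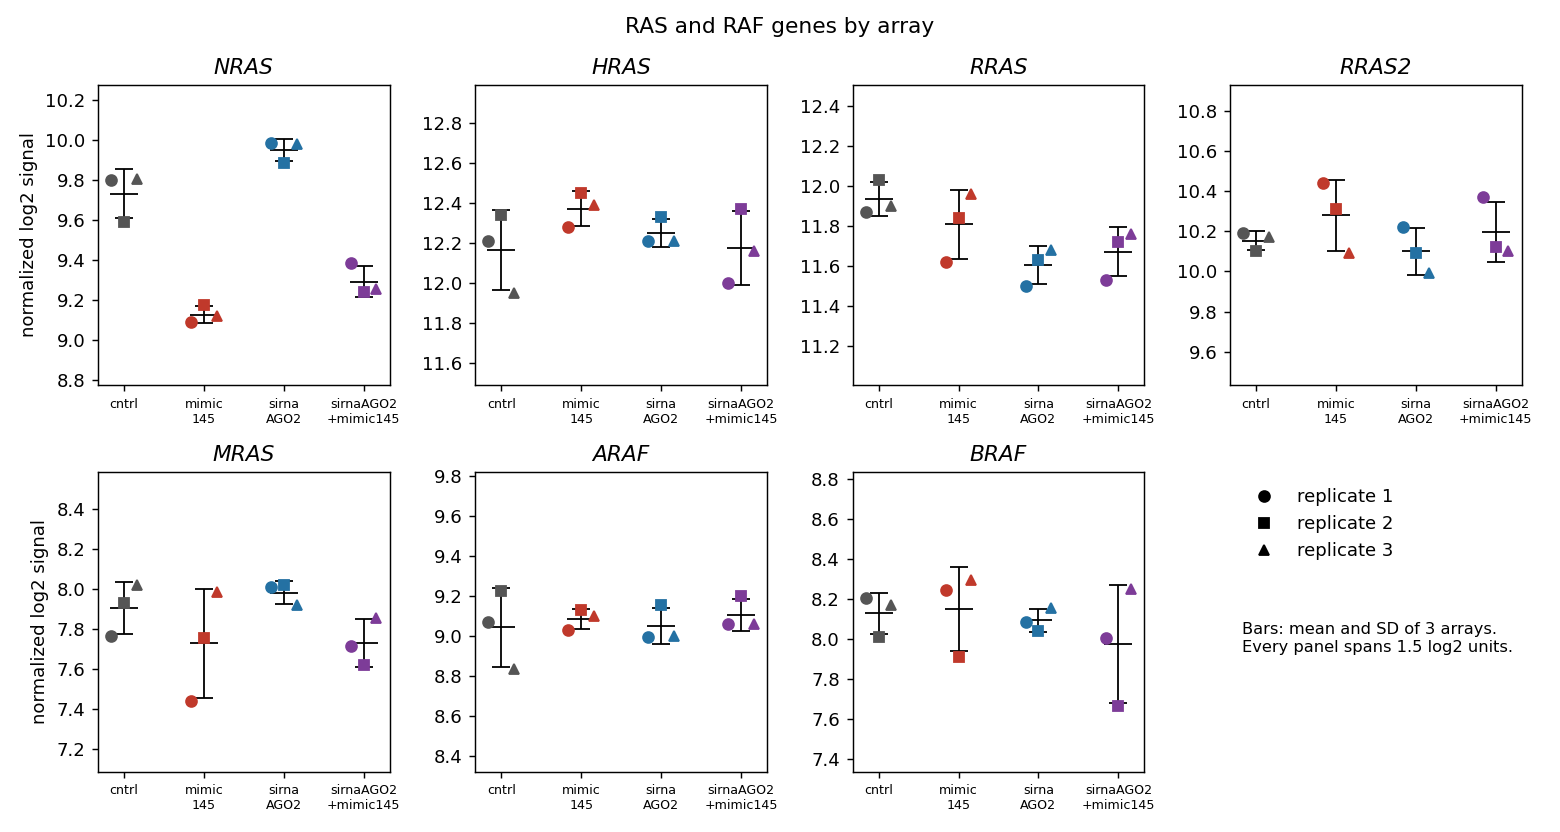
Normalized log2 signal (y axis) of the 7 genes on the 12 arrays, by group (x axis). Each symbol is 1 array, its shape gives the replicate number, and the bars give the mean and SD of 3 arrays. Every panel spans the same 1.5 log2 units. The 6 arrays with the mimic lie below the 6 without it for NRAS, from 9.09 to 9.38 against 9.59 to 9.98, and the groups of the other genes lie closer together.

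NRAS encodes a RAS GTPase that is itself mutated in many melanomas and leukemias. Its signal on the 3 cntrl arrays was 9.80, 9.59 and 9.80, and on the 3 mimic145 arrays 9.09, 9.17 and 9.12. On the sirnaAGO2 arrays it was 9.98, 9.88 and 9.98, and on the sirnaAGO2+mimic145 arrays 9.38, 9.24 and 9.25. Every array with the mimic was lower than every array without it, and the 4 groups did not overlap. Their order from low to high was mimic145, sirnaAGO2+mimic145, cntrl and sirnaAGO2, but neither mimic145 against sirnaAGO2+mimic145 nor cntrl against sirnaAGO2 passed limma's test.

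In cells with AGO2, NRAS fell by 0.60 with the mimic (SE 0.07, 95% interval -0.77 to -0.44, limma adjusted p = 0.000824), to 65.8% of its level in cntrl. It was lower in 3 of 3 replicate pairs, which are also 3 slides, by 0.42 to 0.71. It was 428th by p among the 18253 genes tested. In AGO2-silenced cells it fell by 0.66 (SE 0.07, 95% interval -0.83 to -0.49, limma adjusted p = 0.00519), to 63.4% of its level in sirnaAGO2 and again in 3 of 3 pairs, and was 34th of 18253 by p. NRAS stands in the study's list of known miR-145-5p targets that were lower on these same arrays, so a fall here was a condition of its place in that list and is not independent evidence. Its spread within groups was small, with a pooled SD of 0.08 against a median of 0.17 over all genes.

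The falls of NRAS in both arms were compared directly. The effect of the mimic in silenced cells minus that in control cells was -0.05 (SE 0.11, 95% interval -0.29 to 0.19, limma adjusted p = 0.823). Neither a somewhat larger nor a somewhat smaller fall under AGO2 silencing lies outside this interval. In this comparison of effects 0 of 7 members were called, against 0.011% of all genes, and 0 of 7 had an unadjusted p under 0.05, against 16.8%. The methods' t-test also found 0 of 7, and its share of all genes is not given here.

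Across 27 alternative settings of limma's fit, NRAS in mimic145 against cntrl ran from -0.70 to -0.46 and passed in all 27. In silenced cells it ran from -0.72 to -0.50 and passed in 24. It did not pass in the fit of only the 6 arrays compared (adjusted p = 0.0984), without replicate 2 (adjusted p = 0.0966) or without replicate 3 (adjusted p = 0.162). These fits had fewer arrays. The 27 settings include the fit without the NRAS probe A_23_P63190, which was left out after its values were seen. That probe had the highest difference of the kept NRAS probes in both mimic comparisons, so leaving it out could only deepen the fall. The -0.72 in silenced cells came from this fit, and its passes add no support.

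The 8 kept probes of NRAS, all designed on transcript NM_002524, did not move by the same amount. In mimic145 against cntrl, 7 of 8 were lower and 6 were called lower, against 7.29% of all 142929 kept probes called lower. The probe A_37_P114818 fell most, from 12.18 to 11.10 (difference -1.08, limma adjusted p = 0.00104 over all kept probes). The probe A_23_P63190 had 10.60 in cntrl and 10.62 in mimic145. In silenced cells 8 of 8 were lower and 4 were called lower, against 0.891% of all kept probes. The 7 probes well above background in both groups had differences from -0.78 to -0.24.

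A test of whether the probes of a gene differ in their response, limma's diffSplice, gave NRAS an adjusted p of 0.0121 in control cells, where 14.2% of the 15418 genes tested passed, and of 0.0441 in silenced cells, where 19.8% passed. The dimmest probe, A_37_P456442, was well above background on all arrays without the mimic and on 0 of 6 with it. It passed the filter only through the groups without the mimic, so its fall is not independent evidence. It is among the probes counted as lower above and among those of the diffSplice test. A bound on its difference of group means was taken against the lowest signal well above background on each array. The bound was 1.37-fold in control cells (limma adjusted p = 0.0724) and 1.56-fold in silenced cells (limma adjusted p = 0.0588), and the probe passed in neither. Without the probe A_23_P63190, left out after its values were seen, the gene fell by 0.69 in control cells and by 0.72 in silenced cells.

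**Figure D2:**
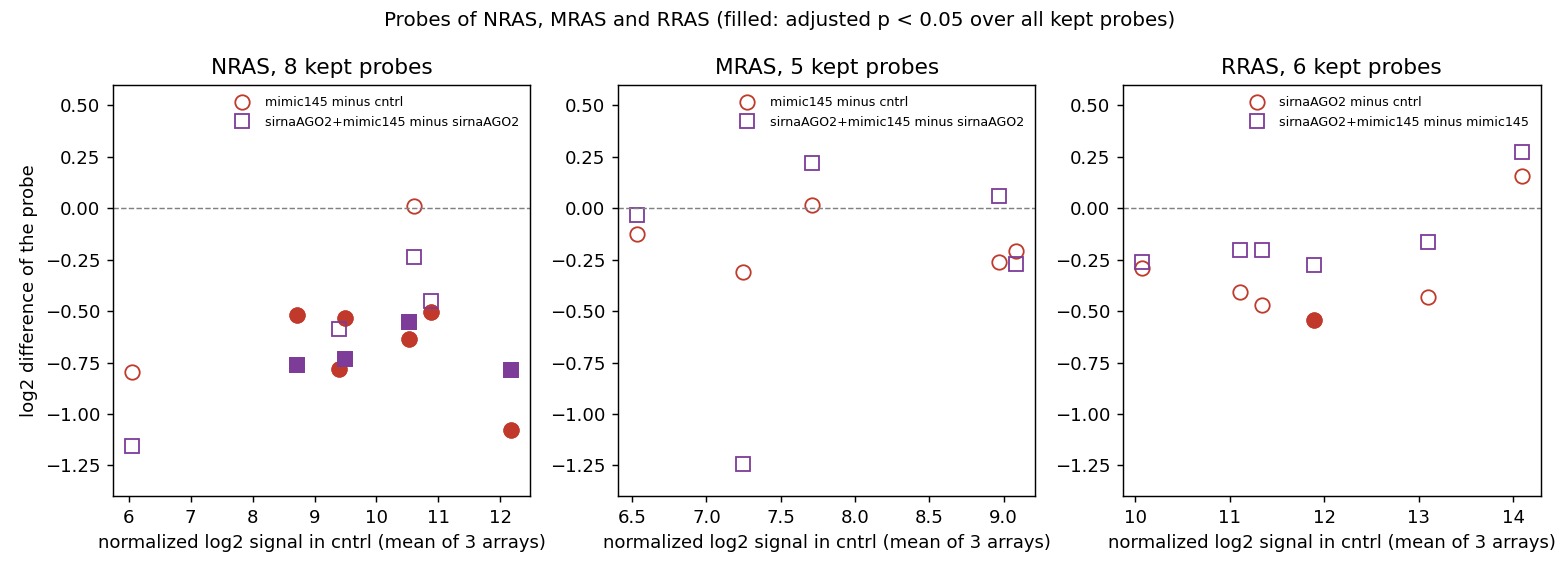
Log2 difference (y axis) against the mean normalized log2 signal in cntrl (x axis) for each kept probe of NRAS, MRAS and RRAS. For NRAS and MRAS, circles give the mimic effect in control cells and squares that in silenced cells, and for RRAS circles give sirnaAGO2 minus cntrl and squares sirnaAGO2+mimic145 minus mimic145. Filled symbols had an adjusted p under 0.05. Of the NRAS probes 1 lies at 0.01 in control cells, and 1 of the RRAS probes lies above 0. In silenced cells 1 dim MRAS probe lies lowest at its measured value, for which the bound on the difference of group means is 1.97-fold.

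With AGO2 silencing and no mimic, NRAS was 0.22 higher in sirnaAGO2 than in cntrl (SE 0.07, 95% interval 0.05 to 0.39, limma adjusted p = 0.158), in 3 of 3 pairs. The arrays did not overlap and 8 of 8 probes were higher, from 0.15 to 0.31, but 0 of 8 probes were called, against 0.484% of all kept probes, and the gene did not pass. Its adjusted p ran from 0.0944 to 0.533 over the 27 settings. With the mimic in both groups, sirnaAGO2+mimic145 was 0.17 above mimic145 (95% interval -0.002 to 0.33, limma adjusted p = 0.237).

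The genes beside the members on the chromosome, in the RefSeq order of GRCh38.p14, were compared too. Of the 14 nearest tested neighbors, 0 were called in mimic145 against cntrl, against 22.6% of all genes, and 3 had an unadjusted p under 0.05, against 35.4%. AMPD1, a neighbor of NRAS that encodes a muscle AMP deaminase, rose by 0.63 on 2 probes with the mimic in silenced cells (limma adjusted p = 0.032), where NRAS fell. AMPD1 was singled out after its values were seen.

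HRAS encodes the RAS GTPase found mutated in bladder and skin tumors. Its signal was 12.21, 12.34 and 11.95 in cntrl and 12.28, 12.45 and 12.39 in mimic145. In sirnaAGO2 it was 12.21, 12.33 and 12.21, and in sirnaAGO2+mimic145 12, 12.37 and 12.16. All groups overlapped, and the third cntrl array was the lowest.

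The difference of HRAS in mimic145 against cntrl was 0.21 (SE 0.09, 95% interval 0.004 to 0.41, limma adjusted p = 0.135), higher in 3 of 3 pairs. Of its 8 probes, 3 were called higher, against 8.1% of all kept probes, and 1, the brightest, was lower, by 0.11. With the median over probes in place of the mean the gene passed (0.32, limma adjusted p = 0.0199), and it did so in 1 of 27 settings. Its 5 probes of NM_005343 had differences from 0.10 to 0.32 and its 3 of NM_176795 from -0.11 to 0.45.

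In silenced cells the mimic moved HRAS by -0.08 (95% interval -0.28 to 0.13, limma adjusted p = 0.616). The effect in silenced cells minus that in control cells was -0.28 (95% interval -0.57 to 0.006, limma adjusted p = 0.307), negative in 3 of 3 replicates. It was the largest such difference of effects among the 7 genes and did not pass. AGO2 silencing alone gave 0.08 (limma adjusted p = 0.655), and silencing in the presence of the mimic gave -0.20 (limma adjusted p = 0.243).

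**Figure D3:**
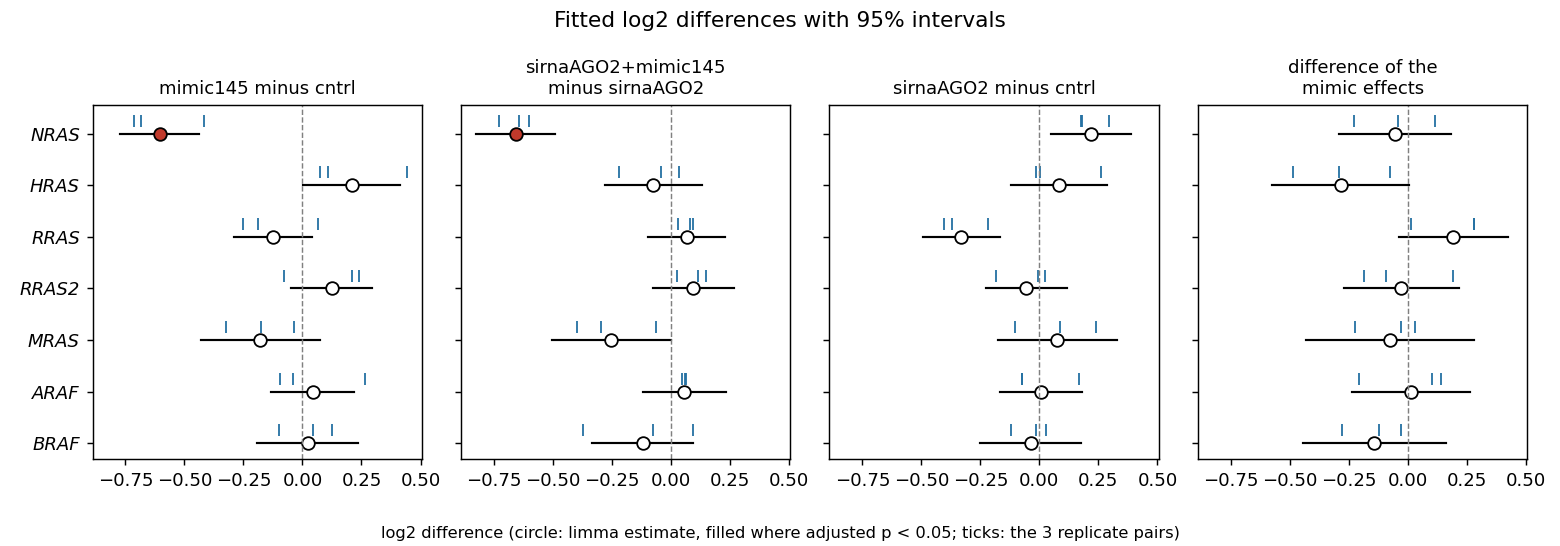
Fitted log2 difference of each gene (x axis) in 3 comparisons of groups and in the difference of the mimic effects, silenced minus control cells. Circles are limma's estimates, filled where the adjusted p was under 0.05, lines are 95% intervals and ticks are the 3 replicate pairs. Only NRAS is filled, at -0.60 and -0.66, and its difference of effects is -0.05.

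RRAS, RRAS2 and MRAS form the R-Ras branch of the family. R-Ras, the product of RRAS, is known for its part in integrin activation and cell adhesion. The signal of RRAS was 11.87, 12.03 and 11.90 in cntrl and 11.50, 11.63 and 11.68 in sirnaAGO2. In mimic145 it was 11.62, 11.84 and 11.96, and in sirnaAGO2+mimic145 11.53, 11.72 and 11.76. Every sirnaAGO2 array was lower than every cntrl array, and the mimic145 arrays overlapped both groups.

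RRAS was 0.33 lower in sirnaAGO2 than in cntrl (SE 0.07, 95% interval -0.49 to -0.17, limma adjusted p = 0.0503), at 79.5% of the control level and lower in 3 of 3 pairs, so that it fell just short of the threshold. In this comparison 0 of 7 members were called, against 2.58% of all genes, and 2 of 7, RRAS and NRAS, had an unadjusted p under 0.05, against 19%. By the methods' t-test 2 of 7 had an unadjusted p under 0.05 and 0 of 7 passed after adjustment. The shares of all genes by that test are not given here, so these counts are a description only. Over 27 settings RRAS ran from -0.51 to -0.29 and passed in 4, with adjusted p from 0.0232 to 0.437.

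Of the 6 probes of RRAS, 5 were lower with AGO2 silencing and 1, A_37_P150966, was called lower (-0.54, limma adjusted p = 0.0459), against 0.348% of all kept probes. The brightest probe, A_37_P150963, was 0.16 higher, and diffSplice gave an adjusted p of 0.0367 in a comparison in which 0.383% of genes passed. The mimic gave RRAS -0.13 in control cells (limma adjusted p = 0.251) and 0.07 in silenced cells (limma adjusted p = 0.57). AGO2 silencing in the presence of the mimic gave -0.14 (limma adjusted p = 0.311). In that comparison 0 of 7 members were called, against 4.32% of all genes. An unadjusted p under 0.05 was found for 0 of 7, against 21.5%. The methods' t-test found 0 of 7, and its share of all genes is not given here.

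RRAS2 encodes TC21, a transforming member of the branch. Its lowest, middle and highest values were 10.10, 10.17 and 10.19 in cntrl and 10.09, 10.31 and 10.44 in mimic145. They were 9.99, 10.09 and 10.22 in sirnaAGO2 and 10.10, 10.12 and 10.37 in sirnaAGO2+mimic145. All 4 groups overlapped. The mimic gave 0.12 in control cells (95% interval -0.05 to 0.30, limma adjusted p = 0.282) and 0.10 in silenced cells (95% interval -0.08 to 0.27, limma adjusted p = 0.435). The probe of the second transcript, NM_001102669, had 0.05 and 0.22 in these comparisons, the latter the highest of the 7 probes.

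MRAS encodes a small GTPase that, with SHOC2 and a subunit of protein phosphatase 1, removes an inhibitory phosphate from RAF. Its signal was 7.77, 7.93 and 8.02 in cntrl and 7.44, 7.76 and 7.99 in mimic145. In sirnaAGO2 it was 8.01, 8.02 and 7.92, and in sirnaAGO2+mimic145 7.72, 7.62 and 7.86. The sirnaAGO2+mimic145 arrays lay below all sirnaAGO2 arrays.

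The difference of MRAS with the mimic was -0.18 in control cells (limma adjusted p = 0.289) and -0.25 in silenced cells (95% interval -0.50 to -0.002, limma adjusted p = 0.171), lower in 3 of 3 pairs each time. The value in silenced cells rested on 1 dim probe. A_37_P017284, which had 7.29 in sirnaAGO2, was not well above background on any sirnaAGO2+mimic145 array. It passed the filter only through cntrl and sirnaAGO2, so its fall is not independent evidence. The bound on its difference of group means was 1.97-fold, and the probe did not pass (limma adjusted p = 0.0905). On the 3 MRAS probes that were well above background on all 12 arrays the difference was 0.0028, and with the median over probes it was 0.17. For the response of the probes diffSplice gave an adjusted p of 0.00485 in silenced cells, where 19.8% of the genes tested passed. That test included the dim probe, so it is not independent evidence either. The 2 probes on NM_001252091 and NM_001252093 did not pass the filter.

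ARAF and BRAF encode RAF kinases, which active RAS recruits and which phosphorylate MEK. ARAF had 9.072, 9.227 and 8.836 in cntrl and 9.033, 9.130 and 9.102 in mimic145. In sirnaAGO2 it had 8.999, 9.155 and 9.003, and in sirnaAGO2+mimic145 9.064, 9.201 and 9.061. All groups overlapped. Its difference with the mimic was 0.04 in control cells (95% interval -0.13 to 0.22, limma adjusted p = 0.737) and 0.06 in silenced cells (95% interval -0.12 to 0.23, limma adjusted p = 0.663). With AGO2 silencing alone it was 0.01 (95% interval -0.17 to 0.18, limma adjusted p = 0.969). Of its 15 probes, on 3 transcripts, 0 were called in these 3 comparisons, in which 15.4%, 1.87% and 0.484% of all kept probes were.

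BRAF, the RAF kinase most often mutated in cancer, had 8.20, 8.01 and 8.17 in cntrl and 8.25, 7.91 and 8.29 in mimic145. In sirnaAGO2 it had 8.08, 8.04 and 8.15, and in sirnaAGO2+mimic145 8.01, 7.66 and 8.25. The second array of sirnaAGO2+mimic145 was the lowest and the groups overlapped. The mimic gave 0.02 in control cells (95% interval -0.19 to 0.24, limma adjusted p = 0.891) and -0.12 in silenced cells (95% interval -0.33 to 0.10, limma adjusted p = 0.436). Silencing alone gave -0.04 (95% interval -0.25 to 0.18, limma adjusted p = 0.867). Of 18 kept probes 1, A_37_P383661, was called higher with the mimic in control cells (0.33, limma adjusted p = 0.0377), against 8.1% of all kept probes. In the mimic comparisons the intervals of ARAF and BRAF do not hold a change of the size seen for NRAS.

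The genes around RAS and RAF were followed in 8 lists of 104 genes in all, of which 100 passed the filter. ERAS, RIT2, DIRAS2 and DIRAS3 did not. The lists were chosen with earlier results of these data known, so their counts are a description and not independent evidence. In mimic145 against cntrl 23 were called higher, against 11.6% of all genes, and 12 lower, against 11%. In silenced cells 8 were called higher, against 4.25% of all genes, and 2 lower, against 3.03%. AGO2 silencing alone gave 3 higher, against 0.888%, and 0 lower, against 1.69%, with 24 of 100 at an unadjusted p under 0.05, against 19%. Silencing in the presence of the mimic gave 5 higher, against 1.87%, and 4 lower, against 2.44%. The difference of the mimic effects gave 0, against 0.011%, with 20 of 100 at an unadjusted p under 0.05, against 16.8%, and 13 by the methods' t-test. Without the replicate number as a block the counts were 21 in control cells, 0 in silenced cells and 0 in both comparisons of silencing. The control-cell count was 11 without replicate 1 and 16 without replicate 3. Shares of all genes by the t-test and in the other settings of this paragraph are not given here. Those counts are a description only. The split of higher to lower moved with normexp background correction in silenced cells (11 to 5) and with silencing alone (3 to 2), and with scaling by the 75th percentile for silencing in the presence of the mimic (3 to 4).

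Of 16 genes that ERK signaling is known to induce, 8 were called higher in mimic145, against 11.6% of all genes, and 0 lower, against 11%. The median difference was 0.33, against 0.01 over all genes. This list too was chosen with earlier results known. DUSP5, a nuclear phosphatase of ERK, had 10.34, 9.77 and 10.49 in cntrl and 10.82, 10.37 and 11.10 in mimic145, higher in 3 of 3 pairs with overlapping groups, and rose by 0.57 (SE 0.07, limma adjusted p = 0.000684). ETV5, an ETS transcription factor, rose by 0.51 (SE 0.06, limma adjusted p = 0.000901). SPRY4, a Sprouty inhibitor, rose by 0.52 (SE 0.07, limma adjusted p = 0.00157), and CCND1, which encodes cyclin D1, by 0.38 (SE 0.06, limma adjusted p = 0.00238). DUSP4, SPRED2, PHLDA1 and IER3 were the others called. DUSP6, a cytoplasmic ERK phosphatase often used as a readout of the pathway, had a difference of 0.03 (limma adjusted p = 0.795).

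In silenced cells 2 of the 16 were called higher with the mimic, against 4.25% of all genes. They were DUSP5 (0.32, limma adjusted p = 0.0312) and SPRY4 (0.34, limma adjusted p = 0.0336), each passing in 14 of 27 settings. The list median was 0.15, against 0.02 over all genes. Without the mimic, 2 were called higher under AGO2 silencing, against 0.888% of all genes. These were ETV5 (0.40, limma adjusted p = 0.0213, passing in 15 of 27 settings) and EGR1. EGR1, an immediate early transcription factor on 2 probes, rose by 1.70 (limma adjusted p = 0.0175, passing in 18 of 27 settings). With the mimic in both groups 3 were lower under silencing, against 2.44% of all genes. Among them was CCND1 (-0.31, limma adjusted p = 0.0262, passing in 11 of 27 settings). The difference of the mimic effects was -0.31 for CCND1 (limma adjusted p = 0.138), -0.25 for DUSP5 (limma adjusted p = 0.241) and -0.36 for ETV5 (limma adjusted p = 0.115). None of the 16 passed that test, and 4 had an unadjusted p under 0.05, against 16.8% of all genes.

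**Figure D4:**
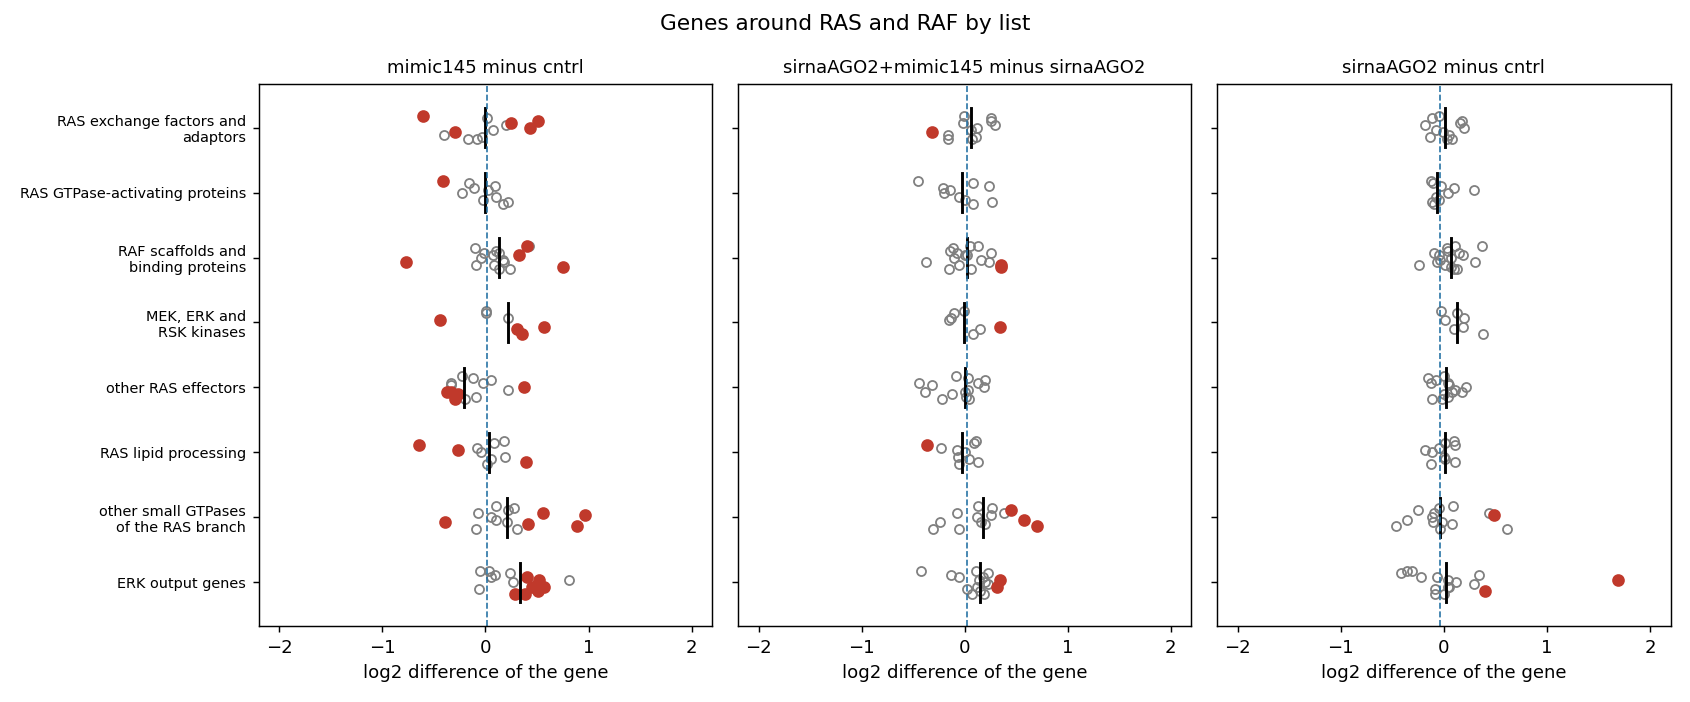
Log2 difference (x axis) of the genes of 8 lists (rows) in 3 comparisons. Each circle is 1 gene, filled where limma's adjusted p was under 0.05, black bars are list medians and dashed lines the median of all genes tested. The 8 filled circles of the ERK output genes in mimic145 minus cntrl lie right of 0, while the exchange factors, scaffolds and effectors have filled circles on both sides.

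Of the 7 kinases downstream of RAF, 3 were called higher and 1 lower with the mimic in control cells. Over all genes 11.6% and 11% were. MAP2K1, which encodes MEK1, rose by 0.35 in control cells (limma adjusted p = 0.0488), but passed in 9 of 27 settings. Of the RSK kinases, which ERK activates, RPS6KA2 rose by 0.31 (limma adjusted p = 0.0209) and RPS6KA1 fell by 0.44 (limma adjusted p = 0.00137).

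Among 12 exchange factors and adaptors that load RAS with GTP, 3 were called higher and 2 lower in mimic145. Over all genes 11.6% and 11% were. RASGRP3, an exchange factor, rose by 0.43 (limma adjusted p = 0.00108) and SHC1, an adaptor, by 0.51 (limma adjusted p = 0.0156). RASGRF1, another exchange factor, fell by 0.61 (limma adjusted p = 0.00058). In silenced cells RASGRF1 had -0.01 (limma adjusted p = 0.937), and under silencing in the presence of the mimic it rose by 0.55 (limma adjusted p = 0.00678). Its difference of the mimic effects did not pass (0.60, limma adjusted p = 0.0647). PTPN11, the phosphatase SHP2 that receptors use to activate RAS, fell by 0.30 in control cells (limma adjusted p = 0.0127) and by 0.32 in silenced cells (limma adjusted p = 0.0319, passing in 12 of 27 settings). RASA2, a GTPase-activating protein, was the 1 of 10 such genes called in mimic145, against 22.6% of all genes. It fell by 0.42 (limma adjusted p = 0.0484, passing in 9 of 27 settings).

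Of 17 scaffolds and binding proteins of RAF, 3 were called higher and 1 lower in mimic145, against 11.6% and 11% of all genes. PPP1CB, the catalytic subunit of protein phosphatase 1 that acts with MRAS and SHOC2, rose by 0.75 in control cells (SE 0.08, limma adjusted p = 0.000588) and by 0.35 in silenced cells (SE 0.08, limma adjusted p = 0.0436, passing in 7 of 27 settings). YWHAE, a 14-3-3 protein that binds phosphorylated RAF, fell by 0.77 in control cells (SE 0.14, limma adjusted p = 0.00523). HSP90AA1, a chaperone of RAF kinases, rose by 0.40 (limma adjusted p = 0.0167). KSR2, a scaffold of RAF and MEK, had -0.09 in control cells (limma adjusted p = 0.37) and rose by 0.36 in silenced cells (limma adjusted p = 0.0215, passing in 12 of 27 settings), and the difference of these effects did not pass (limma adjusted p = 0.0888).

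Of 10 genes listed for the lipid processing of RAS, 1 was called higher and 2 lower in mimic145. Over all genes 11.6% and 11% were. ZDHHC9, an enzyme that palmitoylates NRAS and HRAS with GOLGA7, had 8.91, 9.20 and 9.15 in cntrl and 8.28, 8.46 and 8.58 in mimic145, without overlap. It fell by 0.64 (SE 0.08, limma adjusted p = 0.00102) and in silenced cells by 0.37 (SE 0.08, limma adjusted p = 0.0365, passing in 15 of 27 settings). LYPLA1, a depalmitoylating thioesterase, fell by 0.27 (limma adjusted p = 0.00903), and RCE1, the protease that trims prenylated RAS, rose by 0.39 (limma adjusted p = 0.0226).

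Among 14 genes listed as effectors of RAS other than RAF, 1 was called higher and 4 lower in mimic145. Over all genes 11.6% and 11% were. The list median was -0.21, against 0.01 over all genes. PIK3CB, a catalytic subunit of PI3 kinase, fell by 0.37 (limma adjusted p = 0.029, passing in 15 of 27 settings). TIAM1, an exchange factor for RAC, fell by 0.34 (limma adjusted p = 0.0135) and AFDN, the junction protein afadin, by 0.29 (limma adjusted p = 0.0149). RASSF1, a tumor suppressor that binds RAS, rose by 0.37 (limma adjusted p = 0.0042). Of the 14, 0 were called in silenced cells, against 7.28% of all genes, and 4 had an unadjusted p under 0.05, against 28.8%. PIK3CB had -0.39 there (limma adjusted p = 0.0521), AFDN -0.22 (limma adjusted p = 0.0763) and TIAM1 0.00109 (limma adjusted p = 0.994).

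Other small GTPases of the RAS branch gave 4 called higher and 1 lower of 14 measured in mimic145. Over all genes 11.6% and 11% were. With the mimic in silenced cells 3 were higher and 0 lower, against 4.25% and 3.03% of all genes. RAP1B, which acts on integrins, had 9.26, 9.34 and 9.60 in cntrl and 10.43, 10.14 and 10.52 in mimic145, without overlap, and rose by 0.97 (SE 0.10, limma adjusted p = 0.000424). AGO2 silencing alone also raised RAP1B, by 0.49 (SE 0.10, limma adjusted p = 0.0429, passing in 10 of 27 settings). With the mimic in silenced cells RAP1B had 0.25 (limma adjusted p = 0.141). RASD1, a dexamethasone-induced GTPase on 2 probes, rose by 0.89 in control cells (limma adjusted p = 0.000767) and by 0.70 in silenced cells (limma adjusted p = 0.0133). RALB, a GTPase downstream of RAS effectors, fell by 0.39 (limma adjusted p = 0.0127).

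The genes whose values over the 12 arrays were most like those of a member, among 13328 genes with at least 3 kept probes, are given as a description. They share the arrays, slides and groups with the member. NRAS was most like PRKX (Pearson r = 0.974), IMP3 and ANKFY1 (both 0.973). HRAS was most like MGAT1 (0.943), and ARAF most like SH2B1 (0.967). RRAS was most like DDAH2 (0.945), RRAS2 most like DHX8 (0.962) and BRAF most like STX7 (0.947). Between members, HRAS and ARAF had the highest r (0.746), followed by NRAS and MRAS (0.617), and RRAS2 and MRAS the lowest (-0.65).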

How the data were processed

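RNA of MDA-MB-231 cells was labelled with 1 dye and hybridised to Agilent SurePrint G3 exon arrays. The authors deposited the Feature Extraction (10.7.3.1) output of each array, whose processed signal, an intensity after background correction that was not yet scaled across arrays, was used. Quantile-normalized log2 values of 217027 probes, deposited by the authors as 1 table, served as an alternative. A minimum of 1, quantile normalization of the 12 arrays and log2 followed in this order. The spots of a probe were averaged without control and outlier spots. Kept probes were those called well above background in every array of some group. Probes were named through their transcript accessions, which 209671 of 233164 matched.

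Gene values were the mean over kept probes. Groups and replicate numbers came from the labels. limma 3.58.1 in R 4.3.3 fitted a model of the 4 groups, blocked by replicate number, to all genes of the 12 arrays. Tests were two-sided, and p-values were adjusted by Benjamini-Hochberg within a comparison. The pairing came from the replicate numbers and the study's paired test. It was checked by the correlation of array deviations from group means, 0.148 to 0.576 for the 18 pairs of arrays with 1 number and -0.497 to 0.201 for the 36 others. The fit was tested on simulated data. Members and gene lists were chosen with earlier results of these data known. Pathway genes named are those called in at least 1 comparison, at most 4 a list by smallest adjusted p. DUSP6, EGR1 and genes named without a value were added after their values were seen. Some genes that this rule names are not reported here. Plots used matplotlib 3.10.9.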

Additional observations from a re-analysis of the deposited data

How the results depend on the processing

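NRAS fell in both mimic comparisons under all alternatives, and after Benjamini-Hochberg adjustment the methods' t-test gave it an adjusted p of 0.189 in control cells and 0.306 in silenced cells. The replicate block changed no call of a member. The number of arrays limits what could be called for the members with small differences. With scaling by the 75th percentile the median of all genes was 0.11 in silenced cells, against 0.02 as reported. MRAS in silenced cells turned from -0.25 to 0.0028 on probes well above background on all 12 arrays, with the other genes filtered either way, and to 0.17 with the median over probes.

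The share of all genes called in each setting is not given in this section, so the counts in it are a description only. Members called in mimic145 against cntrl, 1 in the fit reported, were 2 with the median over probes and 0 by the adjusted t-test. In silenced cells, 1 as reported, they were 0 with only the arrays compared, 2 by the unadjusted t-test and 0 by the adjusted one. With AGO2 silencing alone, 0 as reported, they were 1 with normexp (offset 50), with probes well above background on all 12 arrays, with the median over probes, with an intensity trend and at an adjusted p under 0.1, and 2 by the unadjusted t-test. Leaving out a replicate or array gave 1 to 1 in control cells, 0 to 1 in silenced cells (0 without replicate 2 or 3) and 0 to 0 in the other comparisons.

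Pathway genes called in control cells, 35 as reported, were 21 with no replicate block, 15 with only the arrays compared, 0 by the adjusted t-test and 13 with a log2 change over 0.5 also required. In silenced cells, 10 as reported, they were 16 with the 75th percentile, 16 with normexp, 17 with probes above background on all arrays, 0 with no replicate block, 5 with the slide as a block, 0 with only the arrays compared, 0 by the adjusted t-test, 2 with a change over 0.5 and 19 at an adjusted p under 0.1. With silencing alone, 3 as reported, these settings gave, where they moved the count, 5 with normexp or the intensity trend, 8 with probes above background on all arrays or an adjusted p under 0.1, 0 with no replicate block, the slide or the adjusted t-test, 1 with only the arrays compared or a change over 0.5, and 17 by the unadjusted t-test. With silencing in the presence of the mimic, 9 as reported, they were 3 with the median over probes, 0 with no replicate block, the slide, only the arrays compared or the adjusted t-test, 20 by the unadjusted t-test and 4 with a change over 0.5. For the difference of the mimic effects, 0 as reported, they were 1 with normexp, 2 with probes above background on all arrays, 13 by the unadjusted t-test and 3 at an adjusted p under 0.1. Leaving out a replicate or array gave 11 to 36 in control cells (11 without replicate 1, 16 without replicate 3, 21 without the first mimic145 array), 0 to 14 in silenced cells (0 to 2 without any replicate number or compared array except the first of sirnaAGO2+mimic145), 0 to 3 with silencing alone (0 or 1 without any replicate number or compared array except the second of cntrl), 0 to 7 with silencing in the presence of the mimic (0 to 4 without any replicate number, or any array outside cntrl) and 0 to 0 for the difference. Whether these counts moved more than those of all genes in the same settings cannot be told from them. The causes of these moves were not tested.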
